A study of Mus musculus with 2 samples.

Results

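The genes described here are 10 of the 55246 loci in the count table, and they encode REG lectins or proteins that the gut epithelium makes in answer to interleukin-22 (IL-22) and related signals. The set is Reg3b, Reg3g, Reg3a, Reg4, Saa1, Saa3, Lcn2, Nos2, Duox2 and Duoxa2. Its members were chosen by name, with the counts of these same libraries already known, so their ratios between the libraries are given as a description and no test was made of them. The RNA came from regulatory T (Treg) cells, a suppressive class of CD4 T cell whose identity rests on Foxp3, sampled from the colon lamina propria of female mice. Of the 2 libraries, 1 was wild-type (WT) and 1 had the genotype Exon2KO, whose Foxp3 allele is named Foxp3∆2 in the series title. Strain, age, the number of mice pooled, the sort and its purity are not given in the sources used here. Neither genotype had a replicate, the spread between samples is therefore unknown, and every interval below covers counting error in these 2 libraries alone.

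REG3 proteins are secreted C-type lectins that bind bacteria and help to keep them away from the epithelial surface. IL-22, a cytokine of lymphocytes, acts on epithelial cells through a receptor made of IL22RA1 and IL10RB, and signals mainly through STAT3. IL-17 cytokines, which act on the same cells, raise several of the same genes. Serum amyloid A proteins, lipocalin-2, inducible nitric oxide synthase and the dual oxidases are further parts of this response. Treg cells are not a known major source of any of these proteins.

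The pair of genes that the set turns on, Reg3b and Reg3g, lie in 1 cluster on chromosome 6, together with Reg3d, Reg3a, Reg2 and Reg1. Reg3b (ENSMUSG00000071356, 78370657 to 78373466, plus strand, GRCm38) and Reg3g (ENSMUSG00000030017, 78466269 to 78468872, minus strand) are the outermost genes of a span of 98.2 kb, and the 6 REG genes are the only loci that the deposited table lists there. Their start regions are shown with that of Reg3a (ENSMUSG00000079516, 78380709 to 78383827, plus strand), the cluster's other member of the set, because the first 2 genes were abundant in 1 library and the third was not. Each window holds 250 bases before and 50 from the RefSeq start (GRCm38.p6), and runs 5′ to 3′ on the strand of the gene. Capitals mark matches to 3 motifs searched on both strands, a STAT motif (TTCNNNGAA), a C/EBP motif (TTGCNNAA) and a TATA box (TATAAA), which were chosen after the sequences had been seen.
Reg3b, chr6:78370635-78370934, plus strand: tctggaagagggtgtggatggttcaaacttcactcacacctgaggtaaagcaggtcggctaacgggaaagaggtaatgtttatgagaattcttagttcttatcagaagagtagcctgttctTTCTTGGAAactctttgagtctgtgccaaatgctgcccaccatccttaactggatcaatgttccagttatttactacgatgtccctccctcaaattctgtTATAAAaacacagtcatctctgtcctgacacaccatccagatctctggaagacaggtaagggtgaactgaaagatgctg
Reg3g, chr6:78468825-78469124, minus strand: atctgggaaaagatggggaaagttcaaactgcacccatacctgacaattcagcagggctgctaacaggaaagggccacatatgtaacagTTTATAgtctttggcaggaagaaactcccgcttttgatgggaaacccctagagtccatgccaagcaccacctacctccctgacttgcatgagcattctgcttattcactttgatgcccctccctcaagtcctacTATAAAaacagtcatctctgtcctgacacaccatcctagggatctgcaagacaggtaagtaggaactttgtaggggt
Reg3a, chr6:78380459-78380758, plus strand: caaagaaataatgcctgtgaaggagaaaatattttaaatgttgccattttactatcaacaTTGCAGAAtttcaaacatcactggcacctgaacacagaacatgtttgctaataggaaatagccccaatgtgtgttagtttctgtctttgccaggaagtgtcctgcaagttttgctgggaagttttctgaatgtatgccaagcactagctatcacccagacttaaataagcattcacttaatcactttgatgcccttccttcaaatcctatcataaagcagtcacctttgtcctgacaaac

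The Reg3b window held 1 STAT match, TTCTTGGAA, at bases -129 to -121 from the start, and a TATA box at -29 to -24. The Reg3g window held a TATA box at -27 to -22 and a second match on the opposite strand at -161 to -156. In the Reg3a window the only match was to the C/EBP motif, TTGCAGAA, at -190 to -183. Of 32851 start windows of the same length in the RefSeq table, 8.30% held the STAT motif, 10.8% the C/EBP motif and 13.6% the TATA box. Windows were found for 9 of the 10 genes, and Reg3b was the 1 gene among these with a STAT match. A match is a run of letters and not a binding site, and a window without one shows only that these letters are not in it. In a global alignment the Reg3b and Reg3g windows were identical at 71.4% of 294 aligned bases, against 68.3% of 246 for Reg3b with Reg3a and 73.9% of 249 for Reg3g with Reg3a. The RefSeq start of Reg3b lies 228 bases inside the 5′ end of the deposited gene, whereas those of Reg3g and Reg3a differ from it by 2 and 0 bases.

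The libraries held 16281133 (WT) and 15412425 (Exon2KO) reads assigned to genes. Where a gene had 0 reads, its share could still reach 1.84e-05% in WT or 1.95e-05% in Exon2KO, the share that 3 reads would make. Levels are given as CPM, reads relative to the library total, on library sizes scaled with TMM factors, and 3 reads equal 0.191 CPM in WT and 0.188 in Exon2KO. A gene was counted as past 2-fold when it had at least 10 reads over both libraries and the whole 95% counting interval of its ratio lay beyond 2-fold. Of 17363 genes with enough reads, 598 (3.44%) were past 2-fold higher and 576 (3.32%) past 2-fold lower in the Exon2KO library. Foxp3, the gene that carries the deletion, had 6991 reads in WT and 20946 in Exon2KO, which does not check the labels because losing 1 exon leaves most of the gene to be counted. Both libraries held T cell transcripts, with 5154 and 5262 reads of Cd3e. Both also held plasma cell transcripts, with 447269 and 400030 reads of Igkc.

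Of the 10 genes, 6 had enough reads, and 3 of these (Reg3b, Reg3g and Duoxa2) were past 2-fold higher, while 0 were past 2-fold lower. The background shares are the 3.44% and 3.32% above, and nothing is read from the comparison, since the genes were picked from this contrast. The set did not move as 1 block. Reg3b and Reg3g were far higher in the Exon2KO library, Lcn2 was lower, Reg4 had similar low counts in both, Duox2 and Duoxa2 had few reads, and Reg3a, Saa1, Saa3 and Nos2 were almost unread in both. In WT the 10 genes had 144 reads together, of which Lcn2 held 75.7%. In Exon2KO they had 4415, of which Reg3b held 79.5% and Reg3b and Reg3g together 97.8%. As a share of all reads the WT value was 0.000884%, with a Wilson 95% interval of 0.000751 to 0.00104, while the Exon2KO value was 0.0286%, with one of 0.0278 to 0.0295. Without Reg3b and Reg3g, the other 8 genes had 141 and 99 reads.

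**Figure D1:**
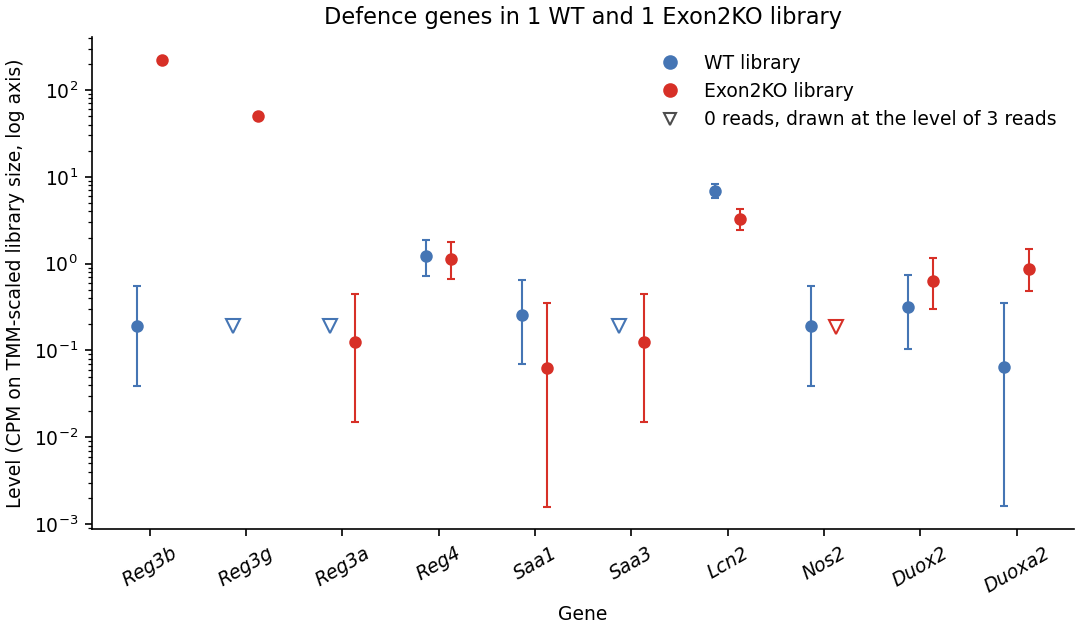
Level of each gene in the WT (blue) and Exon2KO (red) library, in CPM on a log axis, with exact Poisson 95% intervals as bars and open triangles for 0 reads drawn at the level of 3 reads. Reg3b and Reg3g reach 219.6 and 50.3 CPM in Exon2KO and lie at or under the level of 3 reads in WT, while Lcn2 is the most abundant of the genes in WT at 6.94 CPM.

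Reg3b encodes a lectin that acts mainly on Gram-negative bacteria. The WT library held 3 reads of it, and the Exon2KO library 3511. Its level was 0.191 CPM (exact Poisson 95% interval 0.0394 to 0.559) in WT and 219.6 CPM (212.4 to 227.0) in Exon2KO. Without a prior count the ratio was 1149-fold, with a 95% counting interval of 393-fold to 5574-fold that is wide because it rests on 3 WT reads. On the log2 scale the ratio was 9.44 with the prior count of 2 and 8.76 with one of 5. Reg3g, whose lectin acts on Gram-positive bacteria, had 0 reads in WT and 805 in Exon2KO, at 50.3 CPM (46.9 to 54.0). It was at least 263-fold higher by the floor of 3 WT reads, and at least 214-fold higher by the lower 95% counting limit. For both genes the intervals of the libraries lay far apart. In bulk RNA, fewer cells of a type and less RNA per cell cannot be told apart, here as for every gene below. The lower 95% limit of the log2 ratio was 8.62 for Reg3b and 7.74 for Reg3g.

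Neither gene of the pair shared longer sequence with another gene. The longest coding transcripts of Reg3b (783 bases) and Reg3g (771 bases) were identical at 74.7% of 739 aligned bases, and 0 of the 734 and 722 windows of 50 bases in them occurred in a transcript of any other gene of GENCODE M21. Read length is not given in the sources used here. How far Reg3b exceeded Reg3g within the Exon2KO library depended on the length used. Per length as deposited, in FPKM, which scales reads to gene length and library size, Reg3b stood at 193.2 and Reg3g at 23.9, a ratio of 8.07. The deposited length of Reg3g, 2114 bases, includes a transcript with a retained intron, and that of Reg3b is 1142 bases. With the lengths of the longest coding transcripts, an alternative added after the data were seen, the ratio was 4.29.

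The other REG genes of the cluster stayed almost unread between the pair. Reg3a had 0 reads in WT and 2 in Exon2KO, at or under the 3-read limit in both, so no ratio is given. Reg1 had 0 and 1 reads, and Reg2 and Reg3d had 0 reads in both libraries. Counted from the start of Reg3b, Reg3d spans 5.22 to 8.21 kb and Reg3a 10.1 to 13.2 kb, both nearer than Reg3g, at 95.6 to 98.2 kb. The 2 abundant genes are thus the 2 ends of the cluster, on opposite strands. Ctnna2, listed as a neighbour, had 0 reads in both libraries.

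**Figure D2:**
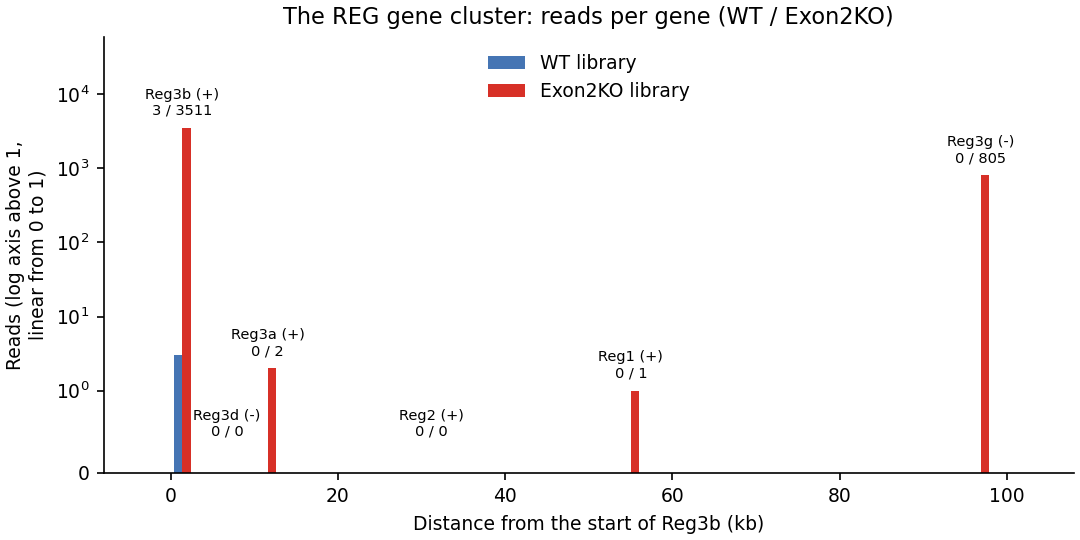
Reads of the 6 REG genes of the cluster, placed by distance in kb from the start of Reg3b, with WT reads in blue and Exon2KO reads in red on an axis that is logarithmic above 1 and linear from 0 to 1. Labels give the strand and the WT / Exon2KO reads. Reg3b (3 and 3511) and Reg3g (0 and 805) stand at the ends, and the 4 genes between them have 0 to 2 reads.

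Reg4, a REG lectin gene outside the cluster (ENSMUSG00000027876, chromosome 3, 98222156 to 98236748, plus strand), is known from deep crypt secretory and enteroendocrine cells of the gut. It had 19 reads in WT and 18 in Exon2KO, or 1.21 CPM (0.729 to 1.89) and 1.13 CPM (0.667 to 1.78). The log2 ratio was -0.09 (95% interval -1.12 to 0.90), so a change of about 2-fold either way was not detectable at this depth. Genes of the cells it is known from are described with the marker lists.

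Among the acute phase and iron-binding genes, Lcn2 was the 1 with many reads. Lcn2 (ENSMUSG00000026822, chromosome 2, 32384633 to 32388252, minus strand) encodes lipocalin-2, which binds bacterial siderophores, and had 109 reads in WT and 52 in Exon2KO. Its level was 6.94 CPM (5.70 to 8.38) in WT and 3.25 CPM (2.43 to 4.27) in Exon2KO, a ratio 2.14-fold lower (1.52 to 3.03). The direction was thus opposite to that of Reg3b and Reg3g, and the interval reached below 2-fold. Saa1 (ENSMUSG00000074115, chromosome 7, 46740497 to 46742980, minus strand) and Saa3 (ENSMUSG00000040026, chromosome 7, 46711998 to 46715700, minus strand) encode serum amyloid A proteins, which carry retinol and other lipids. Saa1 had 4 and 1 reads, with a log2 interval from -7.65 to 1.31 that takes in both directions. Saa3 had 0 and 2, and the neighbouring Saa2 and Saa4 had 0 reads in both libraries. Of the 50-base windows of the longest Saa1 coding transcript, 14.8% also occurred in Saa2 or Saa3, so single reads of these genes are uncertain.

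The enzymes that make nitric oxide and hydrogen peroxide had few reads. Nos2 (ENSMUSG00000020826, chromosome 11, 78920787 to 78960254, plus strand), which encodes inducible nitric oxide synthase, had 3 reads in WT and 0 in Exon2KO, and no ratio is given. Duox2 (ENSMUSG00000068452, chromosome 2, 122279247 to 122298165, minus strand) encodes an oxidase that releases hydrogen peroxide at the cell surface, and Duoxa2 (ENSMUSG00000027225, chromosome 2, 122298900 to 122302885, plus strand) its maturation factor. The genes lie head to head, 734 bases apart. The reads of Duox2 numbered 5 and 10, and its log2 ratio of 0.76 had an interval (-0.71 to 2.87) that takes in 0. Duoxa2 had 1 and 14 reads, a 13.7-fold ratio without a prior count, with an interval of 2.09-fold to 581-fold. Its log2 ratio was 2.40 with the prior count of 2 and 1.65 with one of 5. It passed the 2-fold limit only just, and from 1 WT read. The last 695 bases of Duoxa2 overlap Duoxa1, which runs on the opposite strand and had 0 and 2 reads. The use of strand in counting is not given in the sources used here, and 41.1% of the 50-base windows of Duoxa2 occur in Duoxa1 transcripts on either strand, so the 2 genes are not cleanly separated. Duox1, the paralog in the same locus, had 0 and 5 reads.

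Per length, the order of the genes differed between the libraries. In WT the deposited FPKM was highest for Lcn2 (2.63), followed by Reg4 (1.18) and Reg3b (0.167). From Reg3b downwards, through Saa1, Duox2, Nos2 and Duoxa2, the counting intervals of neighbours overlapped, and Reg3g, Reg3a and Saa3 were listed at 0. In Exon2KO the order began with Reg3b and Reg3g, whose intervals lay apart, followed by Lcn2 (1.25), Reg4 (1.11) and Duoxa2 (0.553). From Lcn2 downwards the intervals of neighbours overlapped, and Nos2 was listed at 0. Reg3b ranked 316th in FPKM among the 22101 loci with an Exon2KO read. It stood above all 28 epithelial and absorptive colonocyte marker genes in that library, the highest of which was Car1 at 92.2 FPKM.

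A list of 34 other mucosal defence genes also held genes that were higher and genes that were lower. Of 23 with enough reads, 11 were past 2-fold higher and 5 past 2-fold lower, with a median log2 ratio of 1.67 beside 0.0035 for all tested genes. Over all tested genes the shares were 3.44% higher and 3.32% lower, here and for every list below. The lists were chosen with earlier results of these data known, so their counts and medians are description only. The highest were Gpx2, an epithelial glutathione peroxidase (11 and 214 reads, log2 ratio 4.03, 3.39 to 5.28), Ccl20, a chemokine for CCR6-bearing cells (1031 and 16679, 3.99, 3.90 to 4.08), and Pigr, the receptor that carries IgA across the epithelium (32 and 474, 3.78, 3.34 to 4.43). Ccl28, a chemokine of mucosal epithelium, held 0 reads in WT and 24 in Exon2KO, and was at least 7.85-fold higher by the floor and at least 5.91-fold by the 95% limit. The lowest were Ang4, an antimicrobial ribonuclease of secretory cells (80 and 3 reads, log2 interval -7.07 to -3.16), Noxa1, an activator of the oxidase NOX1 (275 and 19, -3.75, -4.64 to -3.21), and Retnlb, a goblet cell protein that kills bacteria (157 and 16, -3.17, -4.16 to -2.58). Ltf, which encodes the iron-binding lactoferrin, had 14 and 0 reads, at least 4.75-fold lower by the floor and at least 3.38-fold by the 95% limit. Saa2, Saa4 and Camp had 0 reads in both libraries. The list holds 7 genes that are also in a marker list below.

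**Figure D3:**
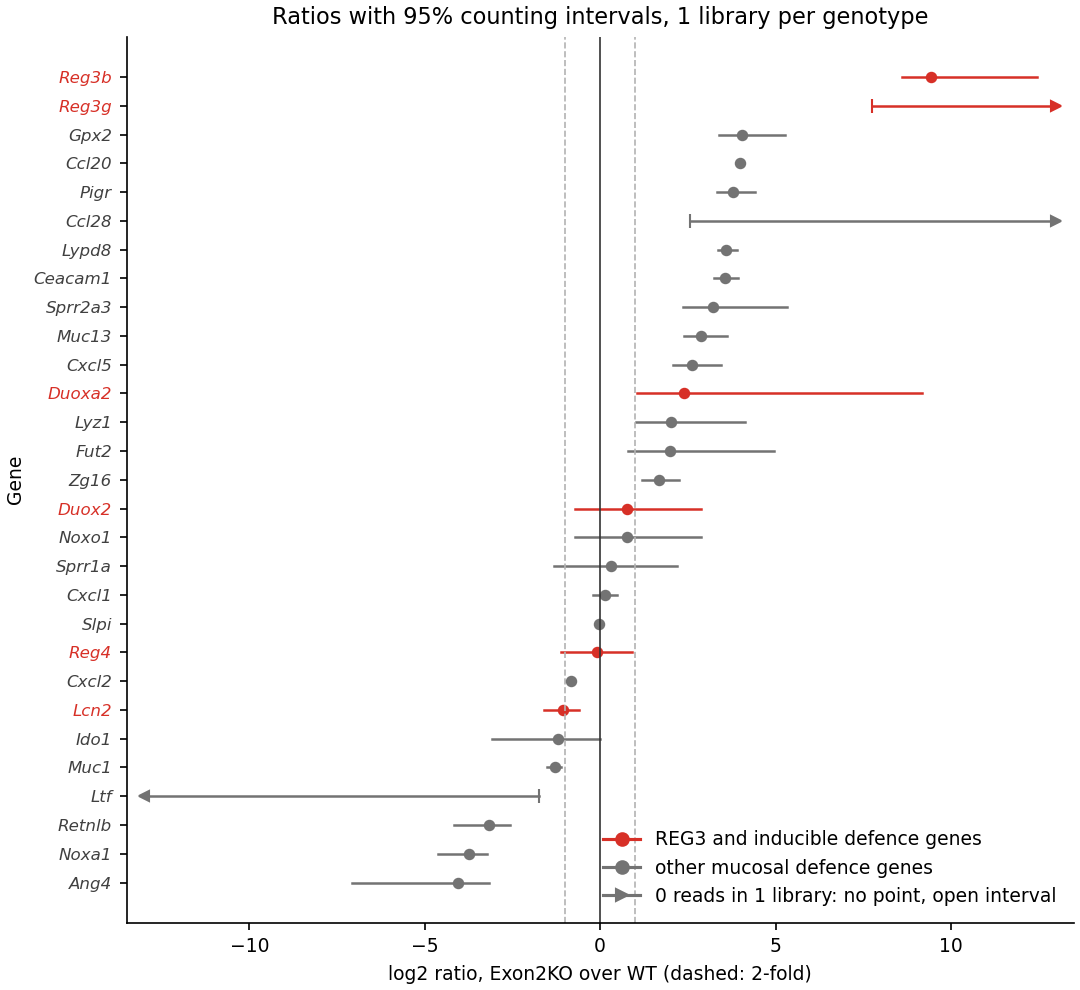
Log2 ratio of Exon2KO over WT (x axis) with 95% counting intervals for the 6 genes of the set with at least 10 reads (red) and 23 other mucosal defence genes (grey), sorted by ratio. Genes with 0 reads in 1 library have no point and an open interval, and dashed lines mark 2-fold. Reg3b and Reg3g lie apart at the top, while Lcn2 lies at -1.07 among the lower genes.

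In a list of IL-22, IL-17 and upstream cytokines 4 genes were past 2-fold higher, and in one of receptors and transducers 0 were. Whether any of these cytokines acted on the genes of the set here was not tested. Of 11 ligands and upstream cytokines, 9 had enough reads, 4 were past 2-fold higher and 0 lower, with a median of 1.44. Il22 had 45 and 269 reads, a log2 ratio of 2.50 (2.09 to 3.04). Il17a and Il17f had ratios of 5.94 and 5.40 and Il6 of 2.86, while Il1b (371 and 329 reads, -0.20, -0.42 to 0.02) and Ifng (91 and 85, -0.12, -0.57 to 0.32) had intervals that took in 0. Il12b had 0 reads in both libraries. Of 16 receptor and transducer genes, 15 had enough reads and 0 were past 2-fold in either direction, with a median of -0.24. Il22ra1, the part of the IL-22 receptor that is found on epithelial and other non-haematopoietic cells, had 0 reads in both libraries. Nfkbiz, which encodes a cofactor of IL-17 target genes, had the lowest ratio (8911 and 4693 reads, -0.95), followed by Stat3 (20036 and 13066, -0.64, -0.68 to -0.61) and Traf3ip2, the IL-17 receptor adaptor (323 and 211, -0.64, -0.90 to -0.39). The highest ratio of that list was 0.43 for Il17rc (28 and 39 reads, -0.29 to 1.21).

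Most markers of colon epithelium were also higher in the Exon2KO library. Of 17 genes in that list, 16 had enough reads, 12 were past 2-fold higher and 0 lower, with a median log2 ratio of 2.83. Their summed reads were 1544 in WT and 6641 in Exon2KO, or 98.4 and 415.4 CPM, a 4.22-fold higher sum. Krt19, a keratin, had 81 and 1430 reads (4.08, 3.79 to 4.46), and Cdx2, an intestinal transcription factor, had 0 and 30. Epcam, an epithelial adhesion gene, went the other way, with 782 and 609 reads (-0.39, -0.54 to -0.23). The absorptive colonocyte list had 7 of 10 tested genes past 2-fold higher and 0 lower, with a median of 2.43, or 1.91 when counts of 3 or fewer were replaced by bounds and 1.70 among genes with at least 50 reads. In it Car1, a carbonic anhydrase, had 24 and 1830 reads (6.11, 5.65 to 6.87) and Fabp2, a fatty acid carrier, 0 and 169. Its summed reads were 2237 and 6136. Of these, Plac8 held 1174 and 2225 (log2 ratio 0.89), Slc20a1 682 and 781 (0.17) and Emp1 241 and 578 (1.23). Much of the sum, in WT above all, thus came from genes with small ratios, and Car4 had only 5 and 2 reads. The part of these epithelial transcripts in the Reg3b and Reg3g counts was not tested.

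Set against the epithelium markers of the same library, Reg3b had 1.94 reads per 1000 marker reads in WT and 528.7 in Exon2KO. Reg3g had 0 in WT, where 3 reads would equal 1.94, and 121.2 in Exon2KO. On this scale the log2 ratio was 8.09 for Reg3b, or 7.36 with the prior count of 2, and at least 5.96 for Reg3g by the floor. Both genes were picked on these counts, so nothing is read from their ratios lying above that of the marker sum. Single markers differed from the sum too, which was 4.22-fold higher. Krt19 was 17.3-fold higher and Epcam was lower. Lcn2 fell behind the markers, with 70.6 per 1000 in WT and 7.83 in Exon2KO, and so did Reg4, with 12.3 and 2.71. Duox2 had 3.24 and 1.51. Duoxa2 had 0.648, under the 3-read limit, and 2.11. Its log2 ratio was 1.70, or 0.32 with the prior count, since it rests on 1 WT read. Epcam held much of the WT marker sum. Without it, an alternative added after the data were seen, the log2 ratio was 7.21 for Reg3b (6.48 with the prior count) and at least 5.08 for Reg3g. That of Duoxa2 was 0.82, and with the prior count -0.56, so its direction there depended on the prior count.

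Secretory cell markers as a list did not follow the absorptive genes, though they were mixed. Of 11 goblet and deep crypt secretory genes, all with enough reads, 4 were past 2-fold lower and 1 higher, with a median of -1.29 (-2.08 among genes with at least 50 reads) and summed reads of 672 and 426. Clca1 (105 and 7 reads, -3.60, -5.28 to -2.84) and Spink4 (63 and 7, -2.88, -4.57 to -2.07) were lower beside Ang4 and Retnlb, and Zg16, a lectin-like goblet protein, was higher (41 and 137, 1.67). Agr2, with the most Exon2KO reads of the list, was higher but not past 2-fold (107 and 195, 0.83, 0.49 to 1.19). Muc2 (41 and 21, -0.93), Tff3 (13 and 10, -0.34) and Spdef (5 and 8, 0.49) were not past 2-fold either. The enteroendocrine list was nearly unread, with 27 and 18 reads in all, and Chgb, Neurod1, Cck, Pyy and Sct had 0 in both. In the Paneth cell list Defa17 and Mmp7 had 0 reads in both libraries, Lyz1 had 5 and 27 reads, and the sum was 90 and 34, of which Ang4 held 80 and 3. Without Ang4, which is also in the goblet list, the sum was 10 and 31. Crypt stem cell markers summed to 44 and 58 reads, of which Axin2 held 44 and 53, and Olfm4 and Smoc2 had 0 in both.

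Markers of 2 other organs that make REG proteins were few. Small intestine enterocyte markers had 39 reads in WT and 85 in Exon2KO, with Sis at 0 in both and Slc5a1 at 0 and 15. Apoa1 held 32 and 57 of these reads, and Lct 7 and 0. Pancreas acinar markers had 10 and 24 reads, all of Prss2, and the other 7 of 8 genes (Try4, Cpa1, Cela2a, Cela3b, Amy2a5, Pnlip and Ctrb1) had 0 in both libraries.

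Myeloid cells are another known source of Lcn2, Nos2 and Saa3. The macrophage and monocyte list had 0 of 9 tested genes past 2-fold in either direction, with a median of -0.05 that changes sign with total-count scaling (0.05), and summed reads of 1431 and 1648. Within it Csf1r had 14 and 6 reads and Cd68 168 and 243. Neutrophil markers had 29 and 39 reads, with Cxcr2, Retnlg and Mmp8 at 0 in both and S100a8 and S100a9, which encode calprotectin, at 0 in WT and at 5 and 4 in Exon2KO. The dendritic cell list had 1 of 4 tested genes past 2-fold lower, Zbtb46 (548 and 140 reads), and Itgax had 0 in both. Their part in the Lcn2 counts was not tested. The stromal and endothelial list had a median of 0.01 with 1 of 7 tested genes past 2-fold higher (Cdh5, 0 and 15 reads). For B and plasma cells the median was -0.35, with 1 of 6 past 2-fold lower (Ms4a1, 47 and 10 reads), and the T cell and Treg list -0.13 with 1 of 10 higher (Foxp3) and 3 lower (Ikzf2, Tnfrsf18 and Tnfrsf4).

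**Figure D4:**
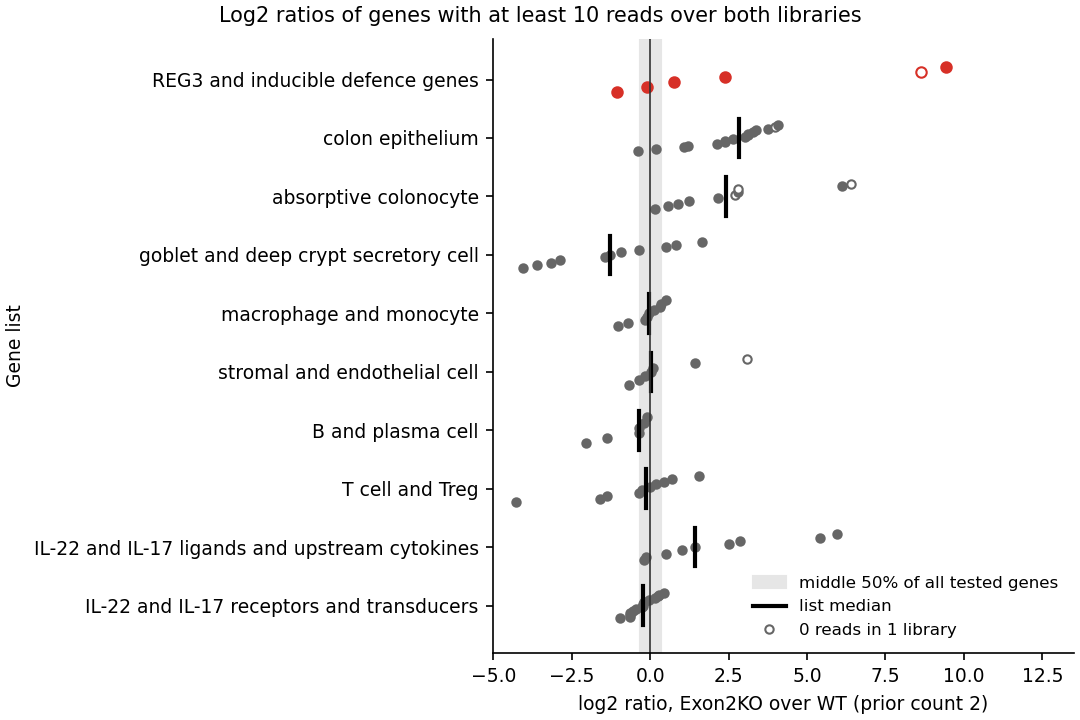
Log2 ratio of the Exon2KO to the WT level (prior count 2, x axis) for each tested gene of the set (red) and in 9 lists (grey), with black bars at list medians, open circles for genes with 0 reads in 1 library, and a grey band for the middle 50% of all tested genes (-0.33 to 0.35). The epithelial and absorptive lists lie to the right with medians of 2.83 and 2.43, the goblet list to the left at -1.29, and Reg3b and Reg3g beyond all other genes shown.

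The genes with ratios most like those of Reg3b and Reg3g were ranked by the lower 95% limit of the log2 ratio among 8222 protein-coding genes with at least 100 Exon2KO reads, outside the Gm and Rik names. The members were picked on these counts and the limit of 100 applies to the library where they are high. They were therefore left out of the ranking, and nothing is read from how their own limits, given above, compare with it. Among the highest of the other genes were Gsdmc4 (limit 6.21), Tmeff2 (5.97), Il17a (5.75), Car1 (5.65), Fabp2 (5.48), Hsd3b3 (5.05), Il17f, Mettl7b (4.55) and Mgat4c (4.54). Likeness here means a ratio over 2 libraries and carries no more than that.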

How the data were processed

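RNA sequencing libraries of 1 WT and 1 Exon2KO sample were compared. Per the labels' protocols, libraries were made from 1 µg of RNA with an NEBNext Ultra kit. The submitters' processing notes name HISAT2 2.0.5, StringTie 1.3.3b, featureCounts 1.5.0-p3, DESeq2 1.16.1 and the build mm10, without their roles. Unnormalized counts of reads for each gene, and FPKM values, were deposited by the authors in 1 table. FPKM was used only to compare genes within a library, and 2 further columns of scaled counts were not used.

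Counts were scaled with TMM factors (0.964 for WT, 1.04 for Exon2KO) from edgeR 4.0.16 in R 4.3.3. Log2 ratios divide Exon2KO by WT after adding a prior count of 2. Their 95% intervals are Clopper-Pearson intervals of a gene's share of reads, turned into ratios without the prior count. A count of 0 gave a bound against 3 reads, genes at or under 3 reads in both libraries got no ratio, and for genes with 1 to 3 reads in 1 library the interval is given. Levels have exact Poisson intervals. No molecular identifiers are mentioned, so reads may repeat a molecule and the intervals cover counting error only. With 1 library per group no p-value was computed. The procedure was also run on simulated Poisson counts with fold changes set only in better-read genes. These counts hold no spread between samples, so that run says nothing about such spread or about changes in genes with few reads. Python 3.11.15 with scipy 1.17.1 and Biopython 1.88 was used.

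Genes were named by rule: all members, and from each of 19 lists up to 4 tested genes at either end and those at 0 in both libraries, with 10 further genes by likeness, of which 1 is not reported here. Others, such as Duox1, Cd3e, Nox1, Noxo1 and Slpi, were chosen after their values were seen. The members and lists were chosen with earlier results of these data known. Of 185 genes in the lists, 14 are in more than 1. Coordinates are as deposited, and 9 of 10 members have the same ones in GENCODE M21 (GRCm38), Duox2 being the exception. Start windows are from RefSeq (GRCm38.p6).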

Additional observations from a re-analysis of the deposited data

How the results depend on the processing

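The ratios of Reg3b, Reg3g, Reg4, Saa1, Lcn2, Duox2 and Duoxa2 were recomputed with 4 other scalings and, except for the bound of Reg3g, with prior counts of 0.5 and 5. All 40 values stayed inside the 95% interval, or within 1 on the log2 scale for the bound. Under total counts Reg4 changed sign, from -0.09 to 0.0010. Relative to epithelium marker reads, log2 ratios with the prior count of 2, which the bound of Reg3g does not use, were 7.36 for Reg3b, 5.96 for that bound, -2.17 for Reg4, -3.14 for Lcn2, -1.32 for Duox2 and 0.32 for Duoxa2, and without Epcam 6.48, 5.08, -3.05, -4.02, -2.20 and -0.56, since the marker sum itself was higher in Exon2KO. Duoxa2 reversed in the last of these by the prior count added to its 1 WT read, and without a prior count was 0.82. The genes past 2-fold, 598 higher and 576 lower, came to 678 and 499 with total counts, to 323 and 387 with at least 50 reads, where the lower genes were then the more numerous, to 1062 and 1092 with a fold of 1.5, to 187 and 164 with a fold of 4, and to 1628 and 1413 by the ratio alone without its interval. Reg3b and Reg3g were past the limit under every one of these rules and the 4 scalings, Duoxa2 not with 50 reads or a fold of 4, and Lcn2 was past it, lower, with a fold of 1.5 or by the ratio alone. With total counts the median over tested genes went from 0.0035 to 0.108. The share of reads of the set in Exon2KO, 0.0286%, was 0.0318% of protein-coding reads and 0.00587% without Reg3b. Per 1000 epithelium marker reads the set had 93.3 in WT and 664.8 in Exon2KO. Against absorptive markers these were 64.4 and 719.5, without Epcam 189.0 and 731.9, and in Exon2KO without Reg3b 136.1. Of 71 recomputed list medians, 67 kept their direction. Those that reversed were the neighbour genes (-0.19), the stromal list (-0.16) and the macrophage list (0.0327) with at least 50 reads, where fewer genes were tested, and the macrophage list with total counts (0.0492). Depth limits Reg3a, Saa1, Saa3 and Nos2 to statements about the floor. No paired analysis was possible because neither genotype has a second library, and for that reason no replicate could be omitted. The Epcam and transcript-length alternatives were chosen after seeing the data.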

Other observations

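Of 12 listed neighbours of the REG cluster and the Saa and Duox genes, 4 had enough reads, with a median log2 ratio of 0.04. Of these 4, 0 were past 2-fold, beside 3.44% higher and 3.32% lower over all tested genes. All 4 lie by the Saa or Duox genes, so they say nothing about the surroundings of Reg3b and Reg3g. Hps5, beside the Saa genes, had 156 and 291 reads (log2 ratio 0.86). Near Duox2 and Duoxa2, Slc28a2 had 899 and 691 reads (-0.41, -0.55 to -0.26), Sord 62 and 55 (-0.19, -0.75 to 0.35) and Shf 16 and 20 (0.27, -0.73 to 1.34).

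Beside Noxa1, which was lower (275 and 19 reads), Nox1 had 4 and 3 reads and Noxo1 5 and 10. Slpi, which encodes a secreted protease inhibitor, had 1791 and 1795 reads and was level (-0.02, -0.12 to 0.07).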
